A study of Rattus norvegicus with 13 samples.

Results

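The thyroid follicle is a single-layered epithelium, and 31 genes of its cell junctions, cell polarity machinery and keratin filaments were examined in the rat thyroid. They were chosen by name, with earlier results of these data known, and they made up 31 of the 36174 gene names on the array, with 42 probes among 45598. Each gene was read from its brightest probe. Of the 31 genes, 29 gave a signal well above background in all 13 animals, against 47.1% of all gene names. Cldn10 and Vil1 were well above background in no animal, so that no level can be given for them. No gene passed the adjusted threshold between the groups, and the groups overlapped for every one of them.

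Follicular cells line a closed lumen that stores thyroglobulin. Tight junctions at their apical border seal that lumen: claudins and occludin span the membrane, while zonula occludens proteins and cingulin form the plaque beneath. Adherens junctions hold neighbouring cells together through cadherins, which catenins link to actin, and desmosomes do the same for keratin filaments. The Par complex and the Crumbs complex set where the apical membrane begins. Simple epithelia such as this one carry the keratins Krt7, Krt8, Krt18 and Krt19, whereas Krt5 and Krt14 belong to the basal layer of stratified epithelia.

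The 13 thyroids came from male Wistar rats whose mothers had been gavaged during pregnancy, for 8 days from gestational day 9, with KI at 1 mg/kg/day (KI-treated group, 6 animals) or with saline (control group, 7 animals). The last day of gavage is given as gestational day 16 in the methods and as day 17 in the introduction of the study. Tissue was collected 30 days after weaning, at 51 days of age. The KI-treated animals had been exposed to KI in utero through their mothers, whose gavage ended before birth. The study kept 13 progeny per group from 16 pregnant rats, and the litter of each animal is not given in the sources used here, so littermates may be present and p-values measure the spread between these animals only. The question was whether the prenatal treatment left a lasting difference in the gene expression of the thyroid.

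A level is given throughout as log2 of the background-subtracted signal relative to the 75th percentile of the same array. A probe's brightness depends on its own sequence, so no order was read from the levels of different genes. Defining markers of the follicular cell were well above background in all animals for 10 of 11 genes, among them thyroglobulin (Tg, 10.02 ± 0.13 in the KI-treated and 10.28 ± 0.23 in the control group, SD, n = 6 and 7) and the thyroid transcription factor Pax8 (4.77 ± 0.40 and 4.91 ± 0.37). Slc26a4, the pendrin transporter, was well above background in none. Whole glands were used: the parathyroid hormone gene Pth (8.53 ± 0.16 and 8.78 ± 0.26), the calcitonin gene Calca and endothelial and stromal genes were also present in every animal. Junction genes are carried by several of these cells, and fewer cells of a type and less RNA per cell cannot be told apart.

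Before any comparison, 2 control animals had to be set apart. On the arrays of control 4 and control 6, probes placed late in a transcript were bright and probes placed early in it were dim, compared with the other 11 arrays. Over 2376 transcripts with 2 tested probes at least 60 bases apart, the downstream probe exceeded the upstream one by a median log2 of 1.65 to 1.88 on the other 11 arrays, by 2.21 in control 4 and by 2.12 in control 6. The downstream-to-upstream gap was the widest of the 13 arrays in control 4 for 43.9% of these transcripts and in control 6 for 18.2%. The same 2 arrays had the lowest 75th percentile intensity (290 and 242 units, against 358 to 547 on the others) and the lowest weights when limma estimated array quality (0.17 and 0.25, against 0.70 to 2.09). Control 7 leaned the same way to a smaller degree, with a median gap of 1.88. Control 4 shared its slide with KI 2 and control 6 with KI 3, which did not stand apart. Differences between the groups are therefore given with and without control 4 and control 6, and the cause of the pattern was not tested.

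**Figure D1:**
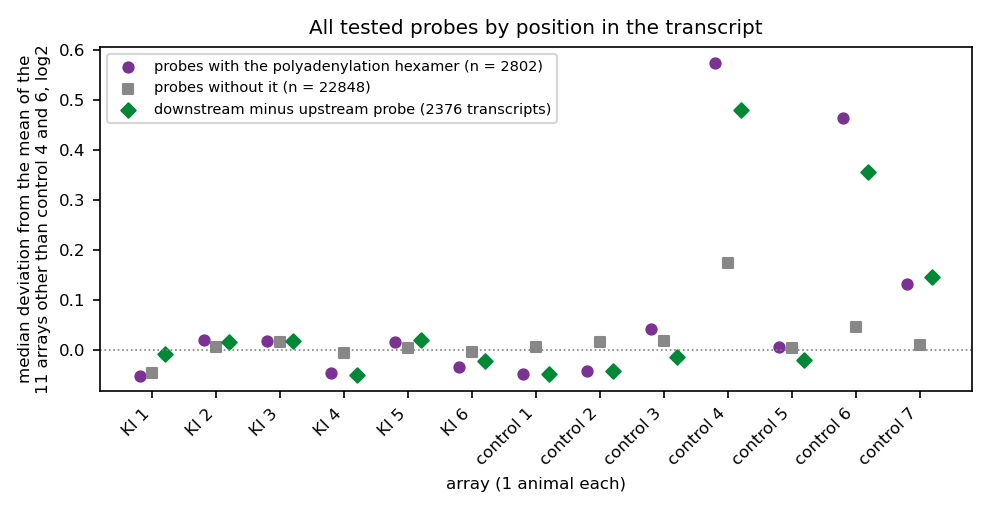
Median deviation of each array (1 animal each, x axis) from the mean of the 11 arrays other than control 4 and control 6, in log2 units, for probes with and without the polyadenylation hexamer and for the gap between the downstream and upstream probe of one transcript. Control 4 and control 6 lie at 0.57 and 0.46 for probes with the hexamer and at 0.48 and 0.35 for the gap, while the other 11 arrays stay within 0.15 of 0.

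The sequences below are shown because control 4 lay above the mean of the other 11 animals on the first 3 probes and below it on the last 3. The first 3 are 30-base windows inside 60-base probes of Krt18, Cldn4 and Cdh16, with the polyadenylation hexamer AATAAA in capitals. All sequences run 5′ to 3′ and were taken from the array files, which place the Cldn4 probe at chr12:22817873-22817932 and the Cdh16 probe at chr19:289483-289542 (rn4, plus strand). The files place the Krt18 probe nowhere. The last 3 are whole 60-base probes of Krt18, Epcam and Krt8, in lower case because no part of them was singled out. Bases count the start of the whole probe in the transcript. Those of Epcam at chr6:11181855-11182638 (plus strand) and Krt8 at chr7:140716967-140717949 (minus strand) each span an intron.
Krt18, window in the probe from base 1309: gactgagggaccAATAAAagtttagaatcc
Cldn4, window in the probe from base 1739: attattttctacAATAAAtggcacctgcat
Cdh16, window in the probe from base 2807: tctttgtccagtAATAAAggctcagagagc
Krt18, whole probe from base 621: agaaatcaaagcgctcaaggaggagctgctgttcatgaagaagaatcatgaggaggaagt
Epcam, whole probe from base 556: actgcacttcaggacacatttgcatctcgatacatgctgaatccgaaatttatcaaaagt
Krt8, whole probe from base 553: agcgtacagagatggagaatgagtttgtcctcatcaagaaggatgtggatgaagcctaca

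Letters AATAAA were present in 9.04% of all probes on the array and in 6 of the 42 probes of the junction, polarity and keratin genes; the letters on the opposite strand, TTTATT, were in 3.53% and in 0. In control 4, all 6 probes with the hexamer lay above the mean of the other 11 animals (median 0.61), against 12 of the 33 tested probes without it (median -0.16). In control 6, 4 of the 6 lay above that mean (median 0.62), against 15 of 33 (median -0.065). Over all tested probes the medians in control 4 were 0.57 with the hexamer, 0.39 with TTTATT and 0.17 without AATAAA, and 0.24 for all probes together. In control 6 they were 0.46, 0.30 and 0.045, and 0.11 for all together. In both animals the median without AATAAA lay above 0 and below that of all probes together. The latter had to hold once the probes with AATAAA had the higher median, so nothing is read from it.

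For 7 of the genes, 2 probes of one transcript could be set against each other within each animal, which removes the level of the gene where both probes read only that gene. This may not hold for Krt18, whose probe at base 621 is placed by the array files on chromosome 2 and may read other copies. In Krt18 the probe at base 1309 exceeded the probe at base 621 by 3.54 to 4.003 in the other 11 animals, by 5.76 in control 4 and by 5.02 in control 6. In Cldn4, whose probes start at bases 1029 and 1739, the gap was 2.28 to 2.76 in the others, 4.33 in control 4 and 3.62 in control 6. In Ezr (bases 2278 and 2775) it was 1.93 to 2.29, then 3.33 and 2.74. Both control animals lay outside the range of the other 11 in these 3 genes. In Cldn8 (bases 557 and 2150) only control 4 did, with 4.71 against 3.32 to 4.05 in the others and 3.81 in control 6. In Ocln (bases 1877 and 4053) only control 6 did, with 3.52 against 0.87 to 2.39 in the others and 2.36 in control 4. The probes of F11r, 321 bases apart, kept a gap of 1.89 to 2.29 in the others, 2.21 in control 4 and 2.09 in control 6. Those of Krt7 had 0.23 to 1.69 in the others, 1.18 in control 4 and 0.96 in control 6. In these 2 genes both animals lay inside the range of the other 11. For Krt7 the upper end of that range was KI 2 alone. Control 4 and control 6 came next, above control 2 at 0.80.

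**Figure D2:**
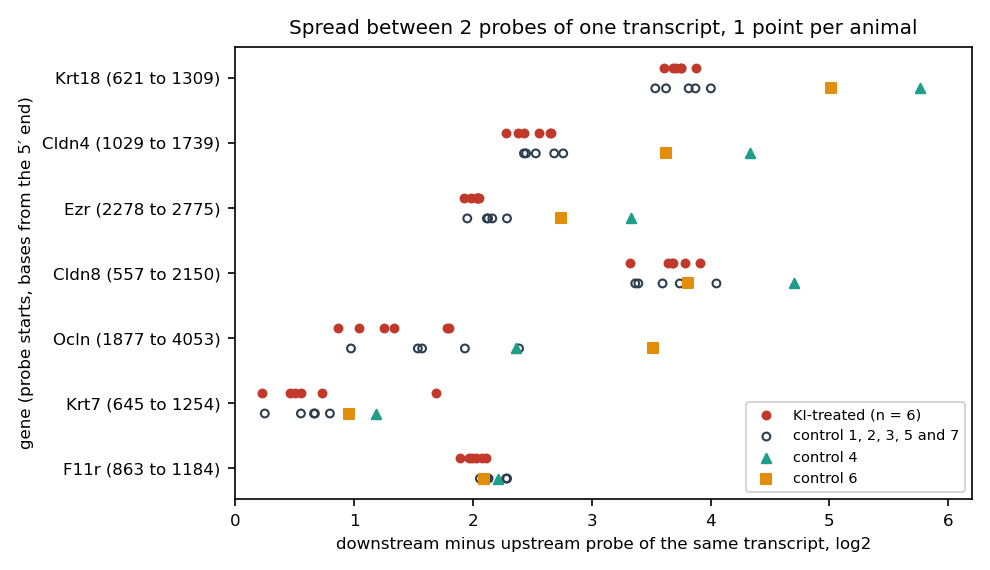
Difference in log2 between a downstream and an upstream probe of the same transcript for 7 genes (y axis, with the start of each probe in bases), 1 point per animal: KI-treated group filled, control group open, control 4 a triangle and control 6 a square. In Krt18 the 11 other animals lie between 3.54 and 4.003 while control 4 and control 6 lie at 5.76 and 5.02, and in F11r all 13 animals lie between 1.89 and 2.29. The upstream Krt18 probe may also read other copies of the gene.

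The keratins Krt7, Krt8, Krt18 and Krt19, the filaments of simple epithelia, were present in all animals. Krt8, the type II keratin that pairs with Krt18, was the gene with the smallest limma p-value of all 29. In the KI-treated group its level was lowest at 2.22, with a median of 2.44 and a highest value of 2.79, and in the control group the same values were 1.80, 2.27 and 2.41. The KI-treated animals tended to lie higher, but 4 control animals (control 2, control 3, control 5 and control 6) lay within the range of the KI-treated group. The means were 2.46 ± 0.19 (SD, n = 6) and 2.16 ± 0.25 (SD, n = 7), a difference of 0.31 (SE 0.13) with an adjusted p of 0.385 in limma and an unadjusted p of 0.038. An exact permutation test (two-sided, all 1716 divisions of the animals into 6 and 7) gave p = 0.034, unadjusted. Unadjusted p-values of this size were common: 12.8% of the brightest probes of all genes had one, 5.21% with higher and 7.59% with lower values after KI. Without control 4 and control 6 the difference was 0.27 (SE 0.13, limma adjusted p = 0.562). Within the 3 scan sessions, with all animals, it was 0.29, 0.34 and 0.53. The first of these set KI 2 and KI 3 against control 4 and control 6, and the last rested on KI 4 as the only KI-treated animal.

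Krt18 showed the largest departure of the 2 control animals among the keratins. The KI-treated group ranged from 5.59 to 6.18 with a median of 5.86. The control group had its lowest value at 5.63, its median at 5.79 and its highest at 6.89, which was control 4, followed by control 6 at 6.63; the other 5 control animals reached 5.98. The difference of the means was -0.17 (SE 0.21) with all animals and 0.12 (SE 0.11) without control 4 and control 6. The second Krt18 probe at base 621 differed the other way, by 0.34 (SE 0.18), and by 0.16 (SE 0.14) without them. That probe is placed by the array files on chromosome 2 of rn4, while RefSeq places Krt18 on chromosome 7 of GRCr8 and names 6 Krt18 pseudogenes there, so its signal may be shared with near-identical copies. Krt19 ran opposite to the brightest Krt18 probe, with 0.18 in control 4 as the lowest of all animals. Its KI-treated values were tight (1.17 to 1.38) and its control values wide (0.18 to 1.78), and its difference of 0.29 (SE 0.21) was 0.11 without the 2 animals. Krt7 ranged from 1.94 in KI 2 to 3.16 in control 2, with a difference of -0.10 (SE 0.20), and -0.12 without control 4 and control 6. Its dimmer probes at bases 1254 and 645 differed by 0.09 and 0.12, and by -0.07 and -0.18 without them.

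Among the adherens junction genes, Cdh1, the E-cadherin of epithelia, ranged from 3.96 to 4.34 in the KI-treated group with a median of 4.16, and from 4.05 to 4.60 in the control group with a median of 4.26. Control 4 and control 6, both at 4.60, were the highest of all 13 animals, and the remaining controls (4.05 to 4.29) lay within the range of the KI-treated group. The difference was -0.15 (SE 0.12) with them and -0.041 (SE 0.090) without them. Ctnna1, the alpha-catenin that ties cadherins to actin, ranged from 2.10 to 2.37 in the KI-treated group (median 2.23) and from 1.38 to 2.25 in the control group (median 2.09). Control 4 was its lowest animal at 1.38. The difference was 0.27 (SE 0.13, limma adjusted p = 0.406, exact permutation p = 0.033, unadjusted) and fell to 0.14 (SE 0.09, limma adjusted p = 0.658) without control 4 and control 6. Within the scan session that holds both, it was 0.69, and in the other sessions 0.09 and 0.17, the last with KI 4 as the only KI-treated animal. Ctnnb1, the beta-catenin that binds the cadherin tail, lay below the 75th percentile in all animals, from -1.72 in control 4 to -0.76 in KI 4, with a difference of 0.14 (SE 0.17), and 0.05 without control 4 and control 6.

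Cdh16, the kidney and thyroid cadherin, and Epcam, an adhesion protein of epithelia, moved apart in the 2 control animals. Cdh16 was 4.25 to 4.82 in the KI-treated group (median 4.57) and 3.91 to 4.68 in the other 5 controls, but 5.42 in control 4 and 5.55 in control 6. The difference between groups was -0.10 (SE 0.25), and 0.23 (SE 0.16) without the 2 animals. Epcam was 4.53 to 4.89 in the KI-treated group (median 4.73) and 4.61 to 4.85 in the other 5 controls, but 3.78 in control 4 and 4.37 in control 6. Its difference was 0.17 (SE 0.16), and -0.02 (SE 0.09) without the 2 animals.

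In the claudin family, which sets the seal of the tight junction, 6 of 7 members were present in all animals: Cldn1, Cldn3, Cldn4, Cldn7, Cldn8 and Cldn12. Cldn3 was the most even of the 29 genes, from 3.87 to 4.33 over all animals (SD 0.14), with group means of 4.09 and 4.10, a difference of -0.01 and of -0.04 without control 4 and control 6. Cldn7 was the most uneven (SD 0.63). It was at 3.28 in control 1 and at 3.05, 2.92 and 2.71 in KI 2, KI 3 and KI 4, while KI 5 and control 7 were at 1.45 and 1.44. High and low animals occurred in both groups, with means of 2.30 ± 0.67 (SD, n = 6) and 2.18 ± 0.64 (SD, n = 7), a difference of 0.13 (SE 0.33) that was -0.06 without control 4 and control 6. This wide spread was not carried by control 4 and control 6, which were at 1.57 and 1.86.

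Among the 6 tested claudins of the 31 genes, Cldn8 had the largest difference. It was 2.75 to 3.28 in the KI-treated group (median 2.86) and 2.93 to 3.53 in the control group (median 3.20). Its difference was -0.22 (SE 0.13, limma adjusted p = 0.442, exact permutation p = 0.087), and -0.14 (SE 0.12) without control 4 and control 6. Cldn4 had its highest values in control 4 (4.92) and control 6 (4.71), against 3.94 to 4.57 in the other 11 animals, with a difference of -0.11 (SE 0.16) that turned to 0.06 (SE 0.12) without them. Its dimmer probe at base 1029 differed the other way, by 0.37 (SE 0.18, exact permutation p = 0.039, unadjusted), with control 4 (0.59) and control 6 (1.08) as its lowest animals, and by 0.14 (SE 0.09) without them. Cldn1 and Cldn12 lay below the 75th percentile in every animal, Cldn1 from -3.17 to -1.21 and Cldn12 from -2.47 to -1.28, with differences of 0.04 (SE 0.28) and 0.10 (SE 0.16), and 0.05 and -0.06 without the 2 animals.

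The other membrane proteins of the tight junction were occludin (Ocln), the junctional adhesion molecule F11r and tricellulin (Marveld2), which closes the corner where 3 cells meet. F11r had the largest difference of all 29 genes, 0.40 (SE 0.28, limma adjusted p = 0.493, exact permutation p = 0.232), and it rested on the same 2 animals. The KI-treated group ranged from 1.01 to 1.77 with a median of 1.40, and the other 5 controls from 1.05 to 1.59, whereas control 4 was at -0.41 and control 6 at 0.57. Without them the difference was 0.04 (SE 0.14). The dimmer F11r probe at base 863 differed by 0.56 (SE 0.28), and by 0.20 (SE 0.14) without them. Ocln was highest in control 4 (3.53) and control 6 (3.26) and ranged from 2.41 to 3.19 in the others, with a difference of -0.23 (SE 0.18) that became -0.05 (SE 0.15). Its probe at base 1877 differed the other way, by 0.44 (SE 0.20, limma unadjusted p = 0.049, exact permutation p = 0.051), with control 6 (-0.90) as its lowest animal, and by 0.26 (SE 0.16) without the 2 animals. Marveld2 went in opposite directions in the 2 animals, with the highest value of all in control 4 (-0.54) and the lowest in control 6 (-2.83). The other 11 lay between -2.34 and -0.84, and its difference was 0.21 (SE 0.32), and 0.27 (SE 0.25) without them.

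The plaque proteins Tjp1 and Tjp3, the zonula occludens scaffolds ZO-1 and ZO-3, and Cgn, cingulin, were all present. Cgn had the most negative difference of the 29 genes, -0.27 (SE 0.17, limma adjusted p = 0.463). Its KI-treated values were 4.002 to 4.42 (median 4.15) and those of the other 5 controls 3.98 to 4.48, with 5.13 in control 4 and 4.84 in control 6. Without these 2 the difference was -0.06 (SE 0.11). Tjp1 ranged from 1.85 to 2.23 in the other 11 animals, with 2.47 in control 4 and 2.32 in control 6, and its difference of -0.05 (SE 0.12) turned to 0.07 (SE 0.08). Tjp3 ranged from 0.75 to 1.94 over all animals, with a difference of -0.12 (SE 0.19) that turned to 0.03 (SE 0.18).

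Of the 4 polarity genes, 3 were highest in control 4 and control 6. Prkci, the atypical protein kinase C of the Par complex, was 4.55 to 4.80 in the KI-treated group (median 4.66) and 4.53 to 4.87 in the other 5 controls, with 5.24 in control 4 and 5.16 in control 6. Its difference was -0.18 (SE 0.13) and became -0.04 (SE 0.09). Pard3, the scaffold of that complex, and Crb3, the Crumbs protein of epithelia, were the others, at 3.21 and 3.001 for Pard3 (2.38 to 2.92 in the others) and at 2.71 in both for Crb3 (1.78 to 2.29 in the others). Their differences were -0.20 (SE 0.14) and -0.22 (SE 0.16), and -0.06 (SE 0.11) and -0.05 (SE 0.12) without control 4 and control 6. A dimmer Pard3 probe at base 3382 differed by 0.10 (SE 0.15), and by 0.05 (SE 0.17) without them. Pard6b, which bridges the kinase to its partners, did not follow: it ranged from -0.48 in KI 1 to 0.36 in KI 3, with a difference of 0.11 (SE 0.15), and 0.15 without control 4 and control 6. Ezr, ezrin, which links apical membrane to actin, was present in all animals (4.86 to 5.61, highest in control 4). Its difference was -0.10 (SE 0.13), and 0.008 without control 4 and control 6. The dimmer Ezr probe at base 2278 differed the other way, by 0.27 (SE 0.15), and by 0.12 (SE 0.11) without them. Villin (Vil1), a bundler of microvillus actin, was well above background in none.

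The 3 desmosomal genes were split. Desmoplakin (Dsp), which anchors keratin, was highest in control 6 (2.21) and control 4 (2.20) and ranged from 1.38 to 1.84 in the others, with a difference of -0.14 (SE 0.15) that turned to 0.05 (SE 0.10) without them. Plakoglobin (Jup), shared by desmosomes and adherens junctions, was lowest in control 4 (1.72) and ranged from 2.09 to 2.46 in the other 12, with a difference of 0.15 (SE 0.12), and 0.06 without the 2 animals. Plakophilin 2 (Pkp2) ranged from 0.95 in KI 4 to 1.86 in control 1, and control 4 and control 6 lay inside that range at 1.42 and 1.45. Its difference was 0.13 (SE 0.16), and 0.15 without them.

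**Figure D3:**
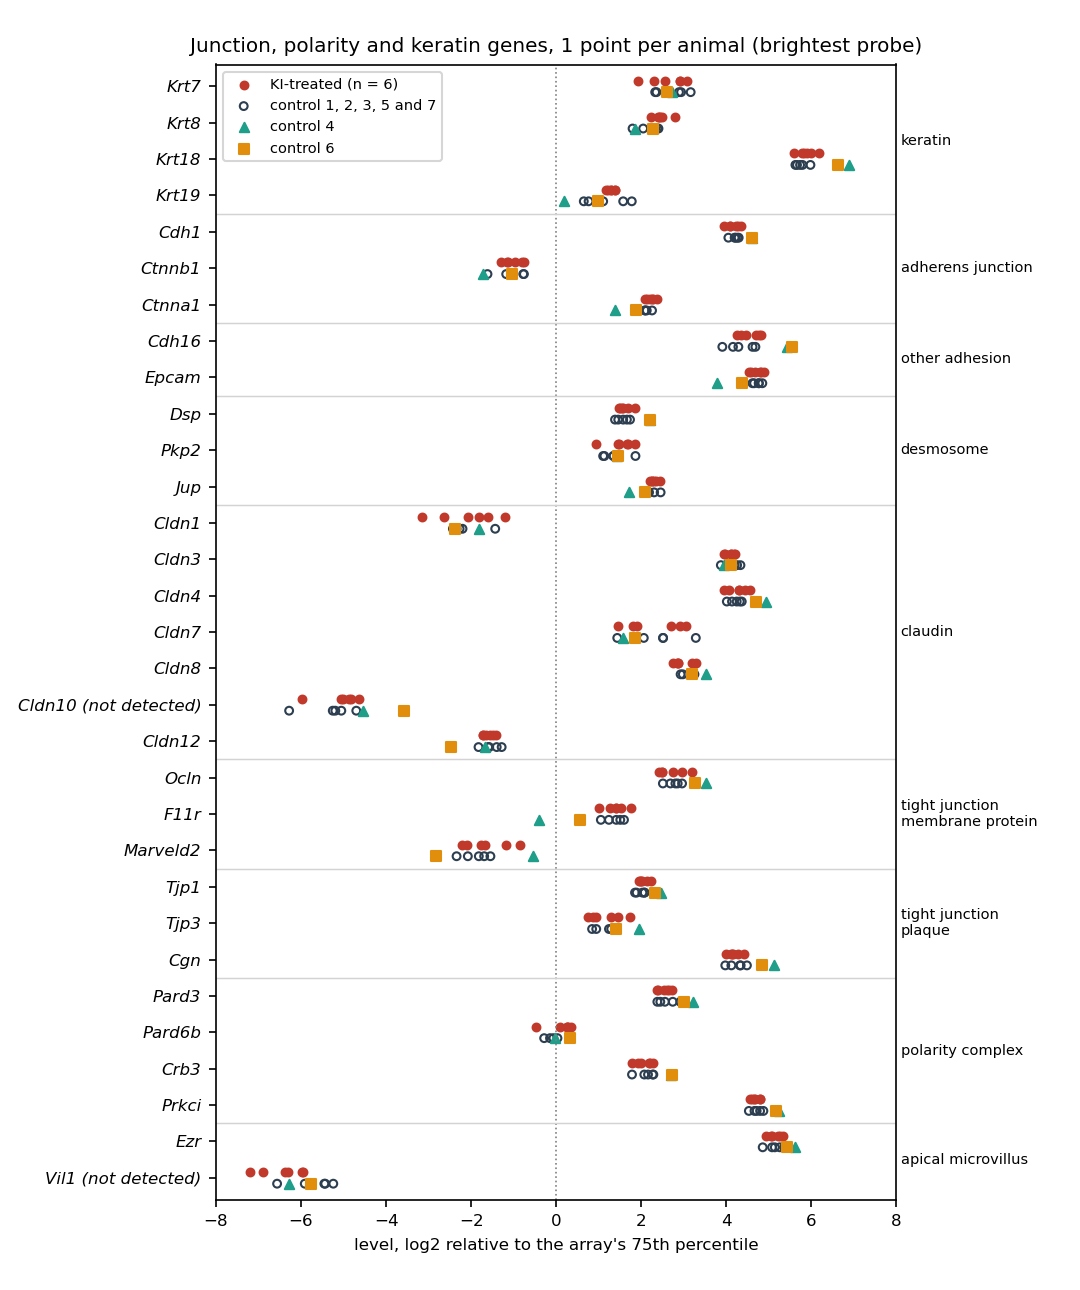
Level of each of the 31 genes (y axis, grouped by role) as log2 over the array's 75th percentile (x axis), 1 point per animal: KI-treated group filled, control group open, control 4 a triangle and control 6 a square. The groups overlap in every detected gene, and the triangle and the square lie at one end of the row for many of them, such as F11r (-0.41 and 0.57) and Krt18 (6.89 and 6.63).

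Over the 29 genes, 0 passed an adjusted p of 0.05 in limma, as did 0.0% of all 25717 tested probes. At an unadjusted limma p under 0.05 there was 1 gene, Krt8, against 12.7% of all tested probes (5.71% higher and 7.01% lower). The exact permutation test gave an unadjusted p under 0.05 for 2 of the 29 genes (6.90%), Krt8 and Ctnna1, against 13.9% of the brightest probes of all genes. The differences ranged from -0.27 for Cgn to 0.40 for F11r with a median of -0.051, and 13 of 29 were above 0 (44.8%), where 36.4% of the brightest probes of all genes were above 0 and their median was -0.095. The groups overlapped in all 29 genes, and they did not overlap for 0.618% of all genes. The standard error had a median of 0.16 for the 29 genes, and with 6 and 7 arrays differences near that size were not detectable. Differences of more than 1 standard error also failed: Krt8, at 0.31 (SE 0.13), had an adjusted p of 0.385 in limma.

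Control 4 or control 6 was the highest of the 13 animals in 15 of the 29 genes and the lowest in 8. These shares, 51.7% and 27.6%, lay near those over all genes, 46.6% and 26.4%. Control 4 alone was highest in 11 genes and lowest in 6 (31.2% and 16.6% of all genes), and control 6 highest in 4 and lowest in 2 (15.4% and 9.76%). Without both animals, 0 of the 29 genes had an unadjusted limma p under 0.05, against 9.48% of the brightest probes of all genes (9.38% of all tested probes), and the smallest adjusted p was 0.562. The differences narrowed to a range of -0.14 to 0.27 with a median of 0.036, and the median over all genes was then -0.010.

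**Figure D4:**
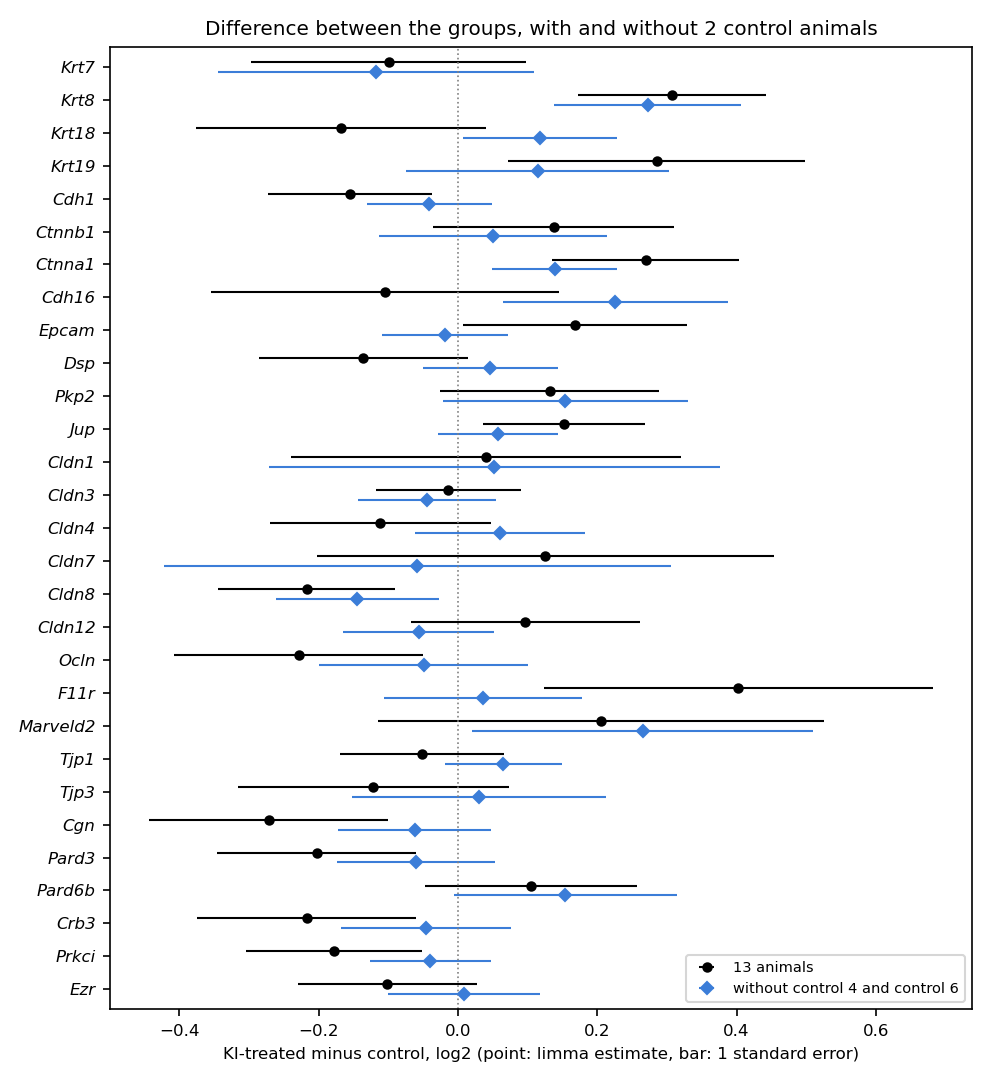
KI-treated minus control in log2 units (x axis) for the 29 detected genes, with the limma estimate as a point and 1 standard error as a bar, over 13 animals (circles) and without control 4 and control 6 (diamonds). F11r moves from 0.40 to 0.04 and Cgn from -0.27 to -0.06, while Krt8 stays at 0.31 and 0.27.

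Co-variation between animals was examined for the 406 pairs of the 29 genes after the group means had been subtracted. Because control 4 and control 6 stood apart, the correlations over the other 11 animals are given first. There, 55 pairs had an unadjusted permutation p under 0.05 and 0 passed after Benjamini-Hochberg adjustment. The median Pearson's r was 0.20, with 70.4% of pairs above 0, while over all gene pairs the median was 0.007 and 50.6% were above 0. An r of at least 0.8 was found for 2.96% of the pairs, against 0.923% of all gene pairs. The closest pairs over 11 animals included Krt19 with Cldn3 (r = 0.88) and Krt19 with Jup (r = 0.87). These genes share the array of each animal, so the values are a description.

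With all 13 animals, 106 pairs had an unadjusted permutation p under 0.05 and 40 passed the adjustment, 39 of them positive, among 19 genes. Prkci took part in 9 of these pairs, Ocln in 8, Cdh1 and Dsp in 7 each. The share of pairs with an r of at least 0.8 was 9.85%, against 2.91% of all gene pairs. Cdh1 and Dsp, E-cadherin and desmoplakin, had r = 0.93 (rho = 0.96, permutation, adjusted p = 0.012 and 0.004), and r = 0.81 without control 4 and control 6, which were also the 2 animals farthest from the median. Epcam and F11r had r = 0.95 (rho = 0.87, permutation, adjusted p = 0.014 and 0.055), and r = 0.71 over the 11 animals. Krt19 and Jup had r = 0.92 (rho = 0.86, permutation, adjusted p = 0.013 and 0.060), which was 0.73 without the 2 animals farthest from the median. Krt19 and Cldn3 had r = 0.85 (rho = 0.95, permutation, adjusted p = 0.029 and 0.014), with 0.84 without the 2 animals farthest in Krt19 and 0.80 without those farthest in Cldn3. The single negative pair was Cldn4 with F11r, with r = -0.79 (rho = -0.76, permutation, adjusted p = 0.043 and 0.084) and -0.37 over the 11 animals. Leaving out control 4 alone left 0 pairs and leaving out control 6 alone left 6. Leaving out another animal also lowered the count, to 10 without KI 1, control 5 or control 7, to 12 without control 3, 14 without control 1, 21 without KI 3 and 23 without control 2, while 34 to 47 passed without KI 2, KI 4, KI 5 or KI 6. Other scalings of the arrays left 6 to 15, so the count of 40 depends on single animals and on the scaling.

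**Figure D5:**
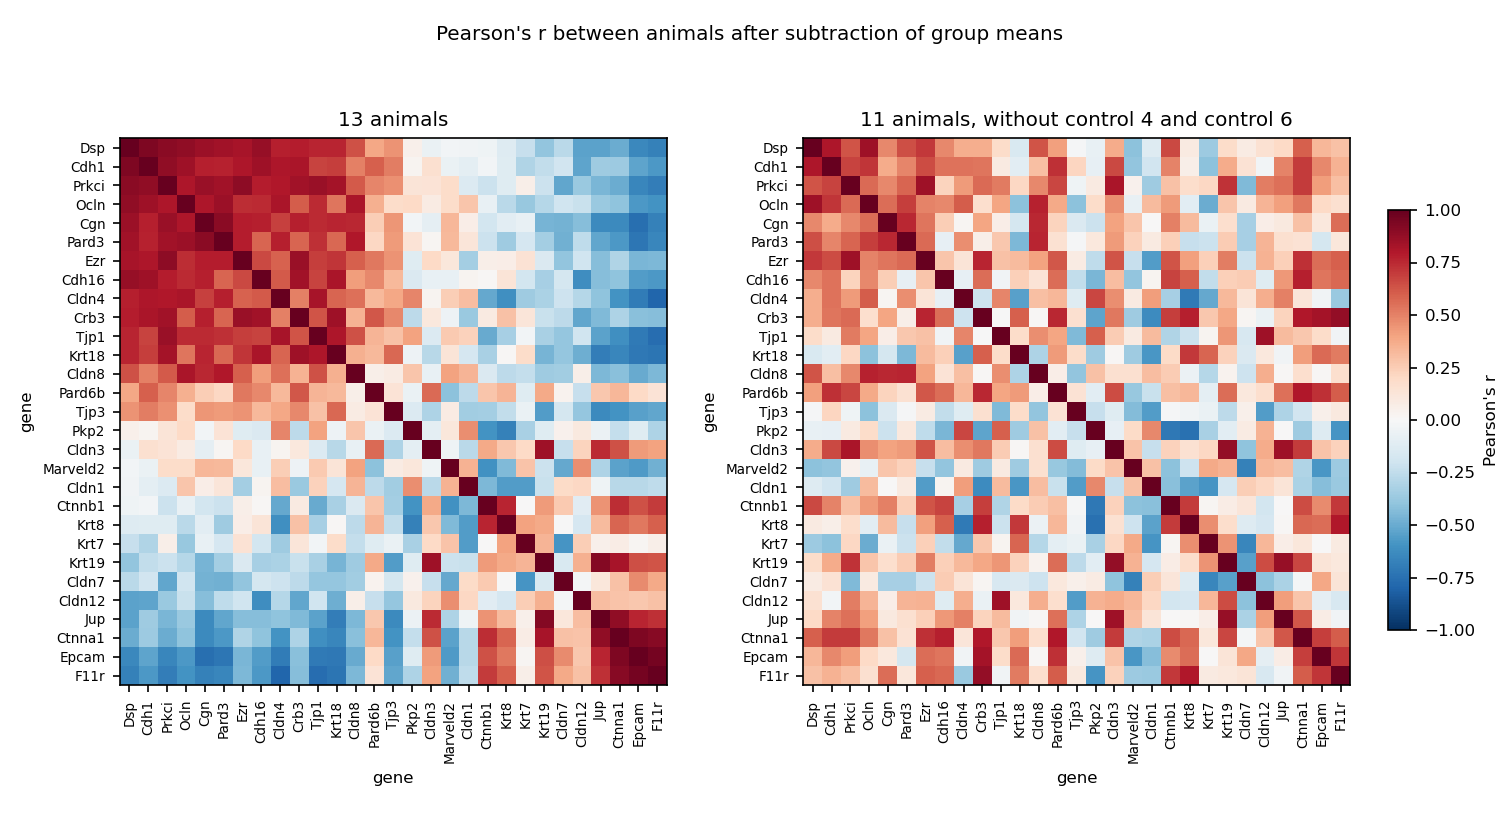
Pearson's r between animals for all pairs of the 29 genes (both axes, same order in both panels) after subtraction of group means, over 13 animals on the left and without control 4 and control 6 on the right, from -1 (blue) to 1 (red). On the left a block of genes around Dsp, Cdh1, Prkci and Ocln is positive within itself and negative towards Epcam and F11r; on the right the block is paler, and the share of pairs above 0 is 70.4% against 53.0% on the left.

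Other genes of the same structures were read from wider lists of 114 genes, of which 94 were tested. None passed the adjusted threshold in limma, and 10 (10.6%) had an unadjusted p under 0.05, 5 higher and 5 lower after KI, against 12.7% of all tested probes. The smallest adjusted p among them was 0.353. Pdzk1, an apical scaffold protein, had a difference of 1.43 (SE 0.42), from -1.82 to -0.81 in the KI-treated and from -4.64 to -1.19 in the control group. Dsc2, the desmocollin 2 of the desmosome, had 0.65 (SE 0.20), from 0.74 to 1.72 against 0.13 to 1.13. These 2 overlapped between the groups, and their differences were 1.60 and 0.72 without control 4 and control 6. Slc9a3r1, the ezrin-binding scaffold NHERF1, ranged from -1.31 to -1.13 against -2.28 to -1.36, so its groups did not overlap (0.618% of all genes). Its difference was 0.39 (SE 0.14, limma adjusted p = 0.358) and 0.30 without the 2 animals.

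The remaining genes with an unadjusted p under 0.05 were Cldn18 (0.51) and Amotl1 (0.52), which were higher, and Cldn11 (-0.57), Marveld3 (-0.34), Ildr1 (-0.28), Dst (-0.39) and Grhl2 (-0.39), which were lower. Without control 4 and control 6 Cldn18 was at 0.47, Cldn11 at -0.56 and Dst at -0.30. Control 4 was the extreme control animal in Amotl1 (-2.04), Marveld3 (0.56), Ildr1 (2.57) and Grhl2 (1.86), and the differences of these 4 were 0.21, -0.19, -0.19 and -0.24 without control 4 and control 6. Further claudins well above background in all animals were Cldn5 of endothelium, Cldn9, Cldn11, Cldn15, Cldn19 and Cldn23. Cldn15, which forms channels for cations, was at 7.31 ± 0.13 in the KI-treated and 7.18 ± 0.25 in the control group (SD, n = 6 and 7). Of the other keratins, Krt4, Krt5, Krt10, Krt14, Krt15 and Krt80 were above background in all animals and Krt1 and Krt20 in none. Krt5 ranged from -3.25 in control 4 to 0.40 in KI 1, and the next highest animal was control 7 at -0.62. Keratins of stratified epithelium were therefore present beside those of the follicle.

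Markers of other cells moved with the same 2 animals. The summed level of the tested genes of each list, as multiples of the 75th percentile intensity, is given here. The 10 tested follicular cell genes summed to 1207 to 1355 in the KI-treated and 1259 to 1882 in the control group, with 1873 in control 4 and 1882 in control 6. The 7 endothelial genes, all present in every animal, summed to 85.9 to 115 and 79.5 to 153, with 153 and 149 in these 2 animals. The 6 C cell genes summed to 167 to 287 and 112 to 282, with 112 and 144, the lowest of all. Of 9 genes of stratified or airway epithelium, 5 were present in all animals, and the 7 tested summed to 1.83 to 4.30 and 2.09 to 4.56. The lymphocyte list (3 tested genes of 8) stood at 15.3 in KI 1 against at most 0.995 in every control. Their part in the values of the junction, polarity and keratin genes was not tested.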

How the data were processed

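The authors deposited, per array, spot intensities that Agilent Feature Extraction (version 10.7.3.1) had background-subtracted and detrended but not normalized between arrays, and a table of log2 values, used as an alternative only; its scale and centring are not given in the sources used here. Between 34840 and 41050 of 58717 gene spots per array were well above background by the software's flag. Control and outlier-flagged spots were left out, spots of one probe averaged, and the array's 75th percentile subtracted on the log2 scale. The 25717 probes that carried the flag on 6 or more arrays were tested with limma (version 3.58.1, R 4.3.3; lmFit, eBayes, Benjamini-Hochberg, threshold 0.05), which was tested on simulated data. Single genes were also tested by exact permutation, and pairs of genes by 100000 permutations within groups (Python 3.11.15, numpy 2.4.6), whose smallest possible p is 1e-05. Groups and replicate numbers came from the labels. Columns of per-sample values left unused: 0. The number of arrays limits the precision.

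The genes and lists were chosen with earlier results of these data known, and the 31 genes are all named. Beyond them, genes were named from the lists where the unadjusted p was under 0.05, where a claudin or keratin was well above background on all arrays, or as a check of the tissue. Other normalizations, filters, blocks, array weights, the methods' t-test and leaving out each animal were tried. The removal of control 4 and control 6 together and 2 other 75th percentiles were chosen after seeing the data. Probe positions, sequences and coordinates are those of the array files (rn4). Cortex samples were not analysed here.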

Additional observations from a re-analysis of the deposited data

Results flagged for a closer look

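Pard6b was lower in KI 1 (-0.48) than in the other 5 animals of the KI-treated group (0.08 to 0.36), a gap wider than expected within a group of 6. It was the only such value among 58 groups examined (29 genes in 2 groups), and chance flags about 1 in 20 groups. KI 1 was also the animal in which the 3 tested genes of the lymphocyte list summed to 15.3 times the 75th percentile intensity, and whether that bears on the Pard6b value was not tested.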

How the results depend on the processing

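No member of the 29 genes was called in limma under any alternative. Over all probes the count of calls was 0 in limma (3271 at an unadjusted p under 0.05), 50 with array weights (2 higher, 48 lower) and 0 to 1 when each animal was left out, 1 without control 1 and 1 without control 2. The study's results name a t-test and its methods section names limma; that test, called the methods' t-test here, was run per probe with equal variances. The methods' t-test called 0 after Benjamini-Hochberg adjustment, with 3142 at an unadjusted p under 0.05. The split of probes at an unadjusted p under 0.05 was 1469 higher and 1802 lower, 1823 and 1432 with quantile normalization, 1166 and 3427 with normexp and the 75th percentile, 1886 and 1359 in the deposited log2 values, and 1789 and 1109 with the 75th percentile over spots. The same replicate numbers in both groups did not pair the animals (correlations of deviations -0.11 to 0.07); with a replicate block, 0 probes were called and 2356 had an unadjusted p under 0.05. The count of called gene pairs was 40, and 71 without subtraction of group means, 0 with slide means subtracted, 7 with group and scan session means, 7 with quantile normalization, 15 with normexp and the 75th percentile, 6 in the deposited log2 values, 9 with the 75th percentile over spots, 7 over detected probes, 0 without control 4 and control 6, and 0 to 47 when each animal was left out, being 0 without control 4, 6 without control 6, 10 without KI 1, 21 without KI 3, 14, 23, 12, 10 and 10 without control 1, 2, 3, 5 and 7; the cause was not tested beyond these removals.

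Among 849 combinations of gene and setting, the sign of the difference between groups turned in 74, in 16 genes, none of which had been called; Cdh1, Krt8, Krt19, Cldn8, Ocln, F11r, Pard3, Pard6b, Jup, Ctnna1, Marveld2, Cgn and Prkci turned in none. Without control 4 and control 6 the turned differences were 0.23 for Cdh16, -0.019 for Epcam, 0.12 for Krt18, 0.060 for Cldn4, -0.058 for Cldn7, -0.057 for Cldn12, 0.065 for Tjp1, 0.030 for Tjp3, 0.0083 for Ezr and 0.047 for Dsp. With both removed, the scan session of control 4 and control 6 held only KI 2 and KI 3. These 2 animals then did not bear on a difference fitted with scan session as block. In that fit the turned differences were 0.18 for Cdh16, -0.039 for Epcam, 0.14 for Krt7, 0.20 for Krt18, -0.32 for Cldn1, -0.38 for Cldn7, -0.097 for Cldn12, 0.014 for Tjp1, 0.18 for Tjp3, 0.012 for Crb3, 0.044 for Ezr, 0.019 for Dsp and -0.092 for Pkp2. With array weights they were 0.079 for Cdh16, -0.0017 for Epcam, 0.087 for Krt18, 0.043 for Cldn4, -0.13 for Cldn7, 0.074 for Tjp1 and -0.087 for Ctnnb1. Quantile normalization gave 0.016 for Cdh16, 0.099 for Cldn3, 0.021 for Tjp1 and 0.030 for Ezr, and with normexp before it 0.015 for Cdh16, 0.085 for Cldn3, 0.033 for Tjp1 and 0.027 for Ezr. The deposited log2 values gave 0.032 for Cdh16, 0.10 for Cldn3, 0.030 for Cldn4, 0.050 for Tjp1 and 0.049 for Ezr. Normexp with the 75th percentile gave -0.042 for Cldn1, 0.019 for Cldn3 and -0.020 for Cldn12. The 75th percentile over spots gave 0.066 for Cldn3 and 0.028 for Tjp1, and over detected probes 0.079 for Cldn3 and 0.041 for Tjp1. The slide block gave -1.06e-05 for Cldn1, the scan session block -0.078 for Cldn1 and the replicate block -0.011 for Cldn1 and 0.012 for Cldn3. The mean of all tested probes of a gene gave 0.036 for Krt7, 0.084 for Krt18, 0.13 for Cldn4 and 0.086 for Ezr. When each animal was left out, the difference ranged from -0.23 to 0.044 for Cdh16, -0.19 to 0.037 for Krt7, -0.14 to 0.26 for Cldn1, -0.052 to 0.025 for Cldn3, -0.024 to 0.31 for Cldn7, -0.033 to 0.16 for Cldn12 and -0.093 to 0.0098 for Tjp1.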
